A study of Gallus gallus with 10 samples.

Results

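The genes described here are a list of 48 that serve the response of cells to a shortage of amino acids and to unfolded protein: enzymes of serine, asparagine and one-carbon synthesis, targets of the transcription factor ATF4, amino acid transporters, tRNA synthetases and chaperones of the endoplasmic reticulum (ER). Members were found by gene symbol on the array, and each gene was read from its probe set of highest mean signal. Of the 48, 41 have a probe set and all 41 were tested, among 9728 tested genes of 13009 with a symbol. No probe set carries the symbol of SHMT2, PYCR1, TRIB3, DDIT3, SESN2, SLC3A2 or MARS, and these 7 are not analysed here. AARS is named AARS1 in the annotation used.

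The samples come from the chick preplacodal region, the band of ectoderm around the anterior neural plate from which sense organs and cranial ganglia arise. Untreated embryos of stages HH5 to HH7 gave anterior (aPPs, 3 arrays) and posterior placode progenitors (pPPs, 3 arrays), which were either processed at once or embedded as explants in rat tail collagen for 5 hr (cultured aPPs, 2 arrays, and cultured pPPs, 2 arrays). The series asks which genes accompany Pax6, which is restricted to anterior progenitors in the embryo and appears in both regions in culture. No array holds tissue left in the embryo for those 5 hr, so that explantation, collagen and the added age cannot be told apart, and "culture" below stands for all of them. The labels do not say how many embryos gave the RNA of an array or whether arrays of a group are separate dissections, so the p-values measure the spread between these samples.

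Cells short of amino acids, or with unfolded protein in the ER, activate kinases that phosphorylate the initiation factor eIF2. General translation then slows, while translation of ATF4 rises, and ATF4 with partners of the C/EBP family switches on genes for amino acid synthesis, uptake and tRNA charging. Unfolded protein also activates IRE1, which splices the mRNA of XBP1, and ATF6, and these raise ER chaperones such as HSPA5. The roles given below for single genes are those known from mammals.

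Values are MAS5 signals, an array brightness in arbitrary units, made comparable by quantile normalisation, and are not compared between genes. Differences are on the log2 scale after 16 was added to each signal, which understates the change of dim genes, and are given ± SE from limma. A gene "rose" or "fell" where the adjusted p, taken over all 21591 tested probe sets, was under 0.05. Groups are said not to overlap when all arrays of one lie above all arrays of the other. With so few arrays an exact permutation test of a single gene cannot go below p = 0.1.

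The median of the deposited signal ranged from 6.2 to 21.3 between the 10 arrays, the share called present ran from 44.7 to 50.2 percent on the 8 arrays with usable calls, and arrays of a group correlated at 0.976 to 0.990. Summed markers of placode and non-neural ectoderm (10 of 11 genes measured, GATA2 never called present) lay between 6100 and 8930 on all arrays. The table of detection calls names 3 columns cultured anterior and 1 cultured posterior, against 2 and 2 in the labels, and 2 of these columns have the same name, so that in each cultured group 1 array has a usable call. A region score, the mean of the 254 probe sets higher in aPPs minus that of the 154 higher in pPPs, was 1.00 to 1.51 in aPPs and -1.56 to -1.01 in pPPs, which chose those probe sets, and 0.73 and 0.70 in cultured aPPs and -0.08 and -0.24 in cultured pPPs, so each cultured array stood with the other array of its label.

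On the log2 scale with 16 added, the largest changes of the list were the rises of PSPH, CEBPB, CHAC1 and ASNS, in both regions. For PSPH this holds for the brighter of its probe sets only. In pPPs 12 of 41 members rose in culture and none fell, where 2.24 percent of all tested probe sets rose and 1.7 percent fell. In aPPs 14 rose and 1 fell, against 2.1 and 1.61 percent of all probe sets. The median log2 difference over the 41 genes was 0.36 in pPPs and 0.49 in aPPs, beside -0.01 and -0.0013 over all tested probe sets. Cultured and uncultured arrays did not overlap for 24 members that were higher and 4 that were lower in cultured pPPs, where 17.2 and 16.4 percent of all probe sets did not overlap. In aPPs these counts were 23 and 3, against 18.4 and 17.7 percent. The list and its role groups were chosen with earlier results of these data known, and each member is its gene's brightest probe set. An excess over all probe sets is therefore no test of the list or of a role group. Without normalisation between arrays only PSPH, CEBPB and CHAC1 passed, in both regions, and 8 passed in aPPs without cultured aPP set 1 or without cultured aPP set 2. In bulk tissue, a change in the number of cells that express a gene and a change in its RNA per cell cannot be told apart.

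**Figure D1:**
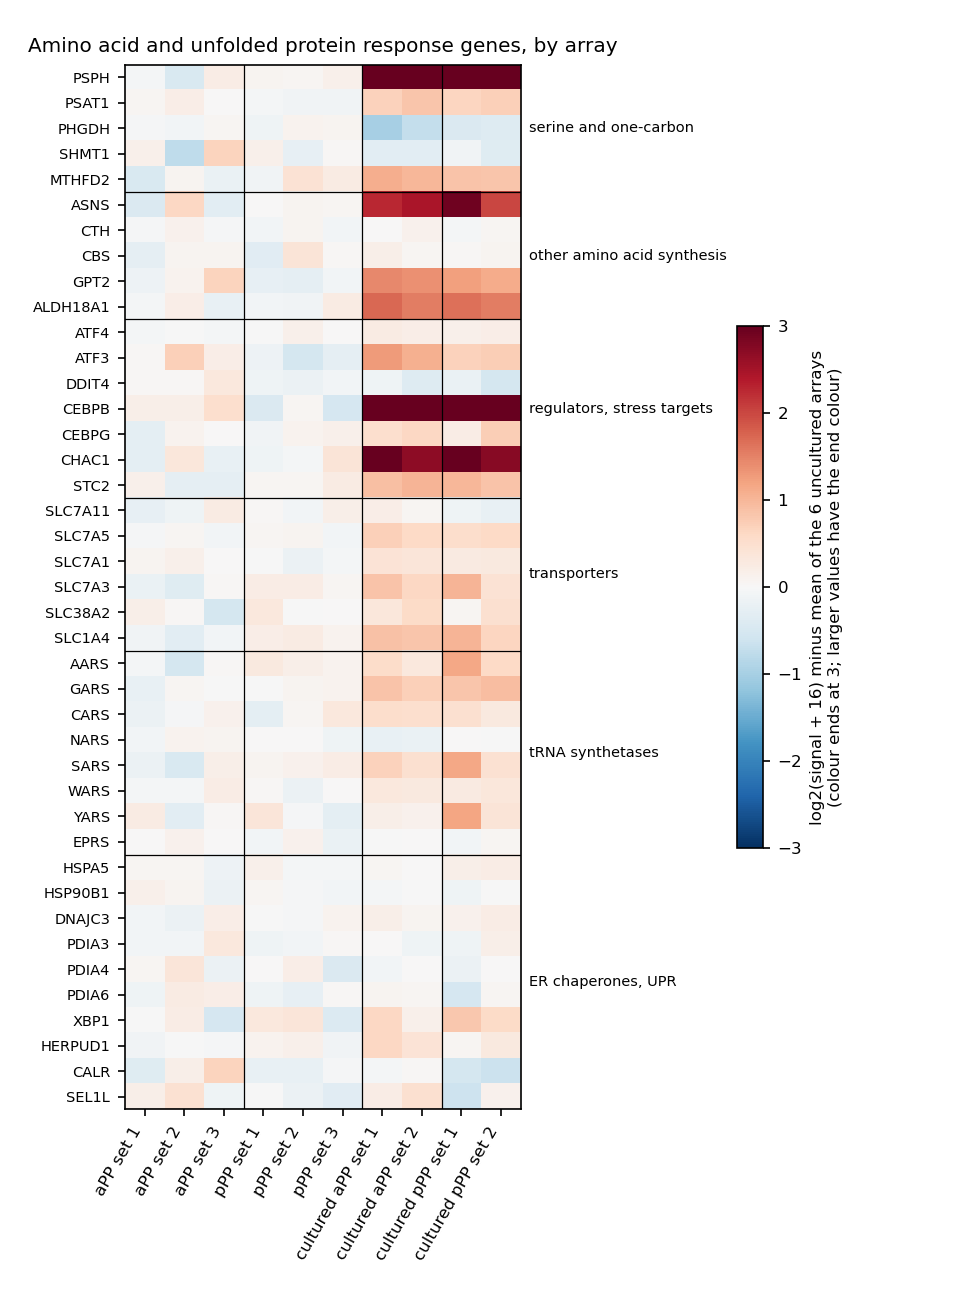
Each row is 1 of the 41 measured genes, ordered by role, and each column 1 of the 10 arrays. Colour gives log2(signal + 16) minus the mean of the 6 uncultured arrays for that gene, with red for higher and blue for lower, ending at 3. The 4 cultured arrays are dark red for PSPH, ASNS, CEBPB and CHAC1, while most rows of ER chaperones stay pale.

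The 12 genes that rose in pPPs also rose in aPPs (12 of 12, and 12 of the 14 that rose in aPPs). They were PSPH, PSAT1, ASNS, GPT2, ALDH18A1, ATF3, CEBPB, CHAC1, STC2, SLC7A5, SLC1A4 and GARS. MTHFD2 and SLC7A3 passed the test in aPPs alone, with log2 differences in pPPs of 0.64 ± 0.21 (limma adjusted p = 0.109) and 0.55 ± 0.18 (limma adjusted p = 0.105), and a difference between the regions was not found for either (adjusted p = 0.834 and 0.860). The 2 culture comparisons share no arrays. Over the 41 members their log2 differences correlated at Pearson's r = 0.973 and Spearman's rho = 0.897, and over the 26 members called in neither at 0.725 and 0.731. Over all 21591 probe sets the values were 0.523 and 0.447, and genes within these arrays are not independent replicates. The members were chosen with earlier results of these data known and are each gene's brightest probe set, while all probe sets include dimmer ones. The higher values over members are therefore no test that these genes share their response more than others.

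**Figure D2:**
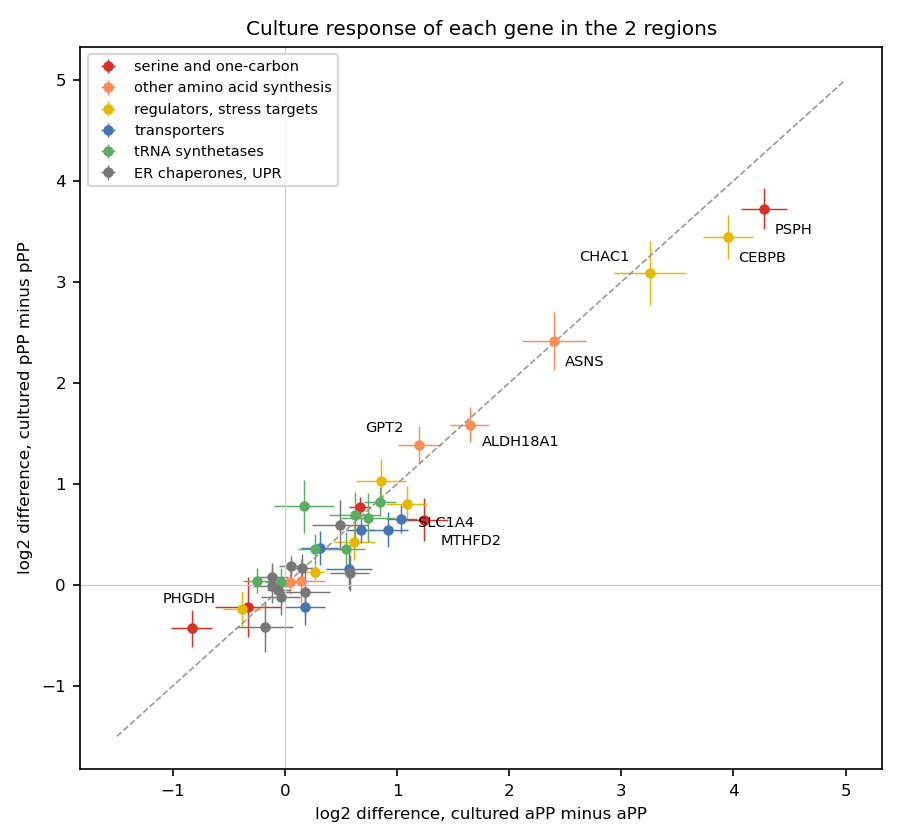
Each point is 1 of the 41 genes, with its log2 difference cultured minus uncultured in aPPs (x axis) and in pPPs (y axis). Bars are SE from limma, colours give the role, and the dashed line marks equal differences. PSPH, CEBPB, CHAC1 and ASNS lie above 2 on both axes, and PHGDH lies at -0.83 and -0.43.

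Serine is made from a glycolytic intermediate in 3 steps by PHGDH, PSAT1 and PSPH, in that order, and feeds one-carbon units into folate metabolism through SHMT1 and MTHFD2. PSPH, the phosphatase of the last step, had a signal of 58.8, 40.3 and 74.0 in the 3 aPP arrays and 66.0, 65.3 and 70.35 in the 3 pPP arrays. After culture it was 1414 and 1348 in aPPs and 1152 and 1015 in pPPs. Every cultured array was far above every uncultured one, in both regions. PSPH rose by 4.27 ± 0.20 in aPPs (limma adjusted p = 1.43e-08), a 19.3-fold change on this scale, and by 3.72 ± 0.20 in pPPs (13.2-fold, limma adjusted p = 1.13e-07). A second, dim probe set of PSPH read 7.99 to 23.6 on all 10 arrays and differed by -0.10 in aPPs (adjusted p = 0.858) and 0.30 in pPPs (adjusted p = 0.478), so the probe sets of this gene disagree.

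PSAT1, the aminotransferase of the middle step, rose less and from a steadier base. Its signal was 1340, 1493 and 1312 in aPPs and 1252, 1196 and 1198 in pPPs. In culture it read 2102 and 2306 in aPPs and 2048 and 2122 in pPPs, without overlap with the uncultured arrays. The rise was 0.67 ± 0.10 in aPPs (limma adjusted p = 0.00129) and 0.77 ± 0.10 in pPPs (limma adjusted p = 0.000519), and the call in aPPs was lost without cultured aPP set 2 (adjusted p = 0.0597). PHGDH, the dehydrogenase that opens the pathway, was dim and went the other way. It read 24.4, 23.2 and 27.2 in aPPs, 21.9, 28.8 and 28.0 in pPPs, 4.71 and 9.42 in cultured aPPs, and 14.55 and 15.9 in cultured pPPs. It was called present on 1 of 3 aPP and 2 of 3 pPP arrays and on neither cultured array with a usable call, and its fall in aPPs was -0.83 ± 0.18 (limma adjusted p = 0.0177). This call was lost when dim probe sets were kept in the test (adjusted p = 0.0619) or without either cultured aPP array (set 1: -0.69, adjusted p = 0.294; set 2: -0.98, adjusted p = 0.087). The cultured pPP arrays also lay below the uncultured ones, with a difference of -0.43 ± 0.18 that did not pass (limma adjusted p = 0.217), and its response did not differ between the regions by the test (adjusted p = 0.856).

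MTHFD2, a mitochondrial enzyme of the folate cycle, read 103, 157 and 127 in aPPs and 332 and 313 in cultured aPPs, a rise of 1.24 ± 0.21 (limma adjusted p = 0.00374). This call was lost without cultured aPP set 1 (adjusted p = 0.0816) or set 2 (adjusted p = 0.0597). In pPPs it read 136, 207 and 178 and after culture 279 and 274, again without overlap. A second probe set of MTHFD2 rose by 1.08 in aPPs (limma adjusted p = 0.0211) and differed by -0.13 in pPPs (adjusted p = 0.835), and the other probe set passed in neither (0.64, adjusted p = 0.177, and 0.12, adjusted p = 0.852). SHMT1, the cytosolic enzyme that transfers a carbon from serine to folate, was called present on 2 of 8 arrays and ranged from 1.17 to 30.2, with the groups overlapping. Of the 5 measured genes of serine and one-carbon synthesis, 2 rose in pPPs and 3 rose and 1 fell in aPPs, with medians of 0.64 and 0.67. Over all probe sets 2.24 percent rose in pPPs, and 2.1 percent rose and 1.61 percent fell in aPPs.

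Among the other synthetic enzymes, 3 of 5 rose in both regions, beside 2.24 (pPPs) and 2.1 percent (aPPs) of all probe sets. The remaining 2 stayed near their uncultured level. ASNS, asparagine synthetase and a much used reporter of ATF4 activity, read 111, 247 and 121.5 in aPPs and 158, 166 and 165 in pPPs. It reached 806 and 920 in cultured aPPs and 1287 and 677 in cultured pPPs. The cultured pPP arrays were wide apart, yet both lay above all uncultured arrays. The rise was 2.40 ± 0.29 in aPPs (limma adjusted p = 0.000287) and 2.41 ± 0.29 in pPPs (limma adjusted p = 0.000252), 5.28-fold and 5.32-fold on this scale. ALDH18A1, the synthase that opens the route from glutamate to proline, read 268, 323.5 and 238 in aPPs, 264, 256 and 333 in pPPs, 949 and 839.9 in cultured aPPs, and 915 and 842 in cultured pPPs. It rose by 1.65 ± 0.17 (limma adjusted p = 0.000123) and 1.58 ± 0.17 (limma adjusted p = 0.000109), with cultured arrays of the 2 regions interleaved.

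GPT2, the mitochondrial alanine aminotransferase, read 390, 472 and 703 in aPPs and 368, 359 and 409.6 in pPPs. It rose to 1211 and 1152 in cultured aPPs and to 1056 and 973 in cultured pPPs, by 1.20 ± 0.19 (limma adjusted p = 0.00222) and 1.39 ± 0.19 (limma adjusted p = 0.000901). The call in aPPs was lost without cultured aPP set 1 (adjusted p = 0.0557), and a second probe set of GPT2 passed in neither (0.73, adjusted p = 0.062, and 0.44, adjusted p = 0.268). CTH and CBS, the enzymes that carry sulphur from homocysteine to cysteine, did not follow. CTH lay between 1045 and 1230 on all 10 arrays, and its log2 differences were 0.04 ± 0.12 in aPPs and 0.03 ± 0.12 in pPPs. CBS lay between 8.72 and 25.1, with differences of 0.14 ± 0.22 and 0.04 ± 0.22. The medians of the 5 enzymes were 1.20 in aPPs and 1.39 in pPPs.

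**Figure D3:**
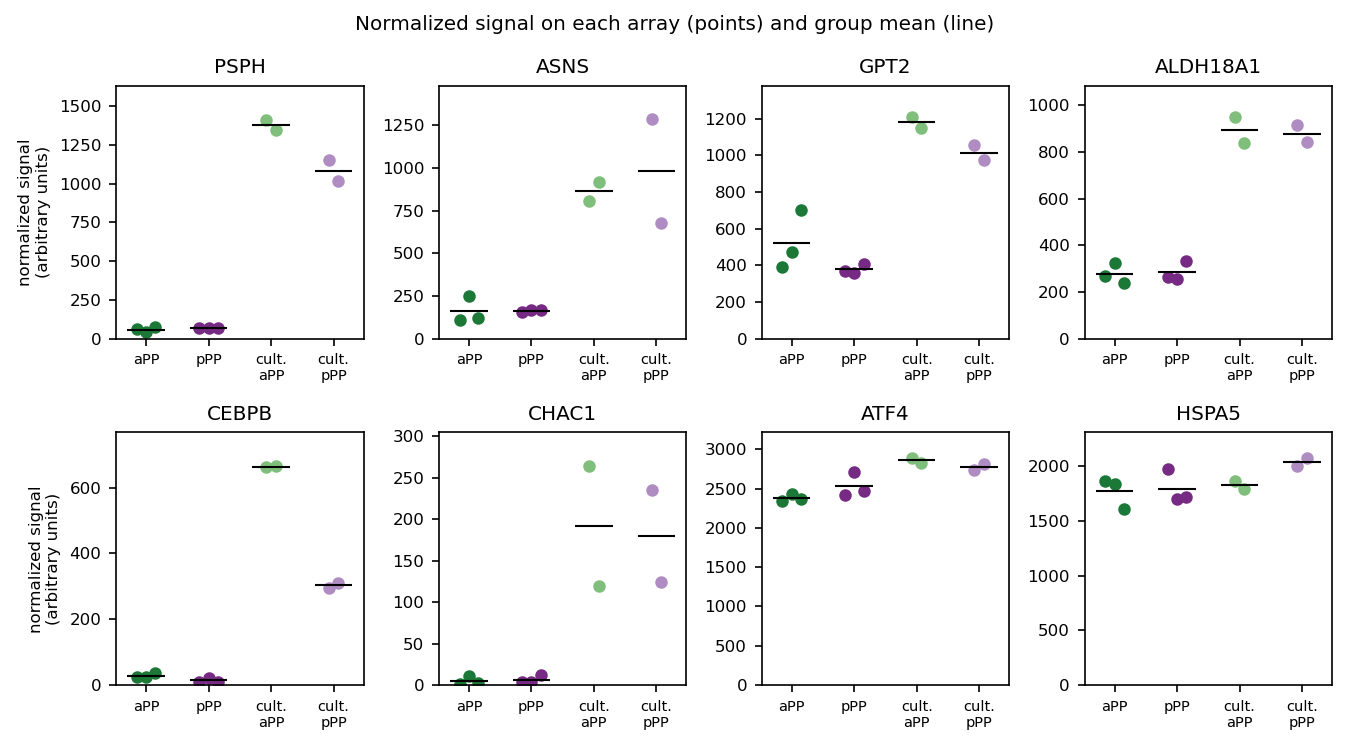
Normalised signal (arbitrary units, linear axis from 0) of 8 genes on each array: points are arrays, horizontal lines group means of 3 aPP, 3 pPP, 2 cultured aPP and 2 cultured pPP arrays. Cultured and uncultured arrays are apart for PSPH, ASNS, GPT2, ALDH18A1, CEBPB and CHAC1, while those of ATF4 lie between 2344 and 2896 and those of HSPA5 between 1606 and 2074.

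ATF4 itself is controlled largely at translation, and its mRNA moved little. It read 2344, 2430 and 2364 in aPPs, 2425, 2715 and 2467 in pPPs, 2896 and 2831 in cultured aPPs, and 2742 and 2809 in cultured pPPs. All cultured arrays lay above all uncultured ones, but the differences of 0.27 ± 0.08 in aPPs (limma adjusted p = 0.0812) and 0.13 ± 0.08 in pPPs (limma adjusted p = 0.417) did not pass. A second probe set of ATF4 rose in aPPs (0.57, limma adjusted p = 0.0427) and not in pPPs (0.20, adjusted p = 0.519), and with array weights the main one passed in aPPs too (adjusted p = 0.0271). DDIT3, the other transcription factor most used to mark this response, is among the 7 without a probe set.

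CEBPB, a bZIP factor that pairs with ATF4, showed the steepest rise of the regulators. It read 24.75, 24.5 and 35.1 in aPPs, 10.5, 21.6 and 9.33 in pPPs, 661 and 665 in cultured aPPs, and 295 and 311 in cultured pPPs. The 4 groups formed 4 separate ranges, lowest in pPPs and highest in cultured aPPs. CEBPB rose by 3.95 ± 0.22 in aPPs (limma adjusted p = 7.68e-08) and by 3.44 ± 0.22 in pPPs (limma adjusted p = 3.97e-07). Its relative CEBPG lay between 336.5 and 463 on uncultured and between 486 and 699.5 on cultured arrays, without overlap, with differences of 0.62 ± 0.18 in aPPs (limma adjusted p = 0.0757) and 0.42 ± 0.18 in pPPs (limma adjusted p = 0.228).

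ATF3, a bZIP factor induced by ATF4, read 17.45, 37.25 and 21.65 in aPPs, 13.3, 6.60 and 11.1 in pPPs, 63.5 and 52.15 in cultured aPPs, and 36.3 and 38.3 in cultured pPPs. It rose by 1.03 ± 0.22 in pPPs (limma adjusted p = 0.0165) and 0.86 ± 0.22 in aPPs (limma adjusted p = 0.0427), and within each region culture and no culture did not overlap. The call in aPPs was close to the threshold, and it was lost with the set number as a block (0.84, limma adjusted p = 0.0592). It was also lost with an offset of 4 (adjusted p = 0.0719) or trimmed mean scaling (adjusted p = 0.0543). The same held without the filter on dim probe sets (adjusted p = 0.104) and with only the arrays compared (adjusted p = 0.0782). Of single arrays left out, it was lost without aPP set 1 (adjusted p = 0.124), aPP set 3 (adjusted p = 0.0964) or either cultured aPP array (0.75 and 0.97), among others. In pPPs the call was lost without cultured pPP set 1 (adjusted p = 0.138), cultured pPP set 2 (adjusted p = 0.0684) or pPP set 2 (adjusted p = 0.0701).

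CHAC1, an enzyme that breaks down glutathione and a target of the ATF4 pathway, went from no detection to a clear signal. It had no present call on any of the 6 uncultured arrays, where it read 1.24, 10.96 and 2.14 in aPPs and 3.23, 4.22 and 11.6 in pPPs. In culture it read 264 and 119.5 in aPPs and 236 and 124 in pPPs, a rise of 3.26 ± 0.32 in aPPs (95% interval 2.58 to 3.94, limma adjusted p = 8.07e-05) and of 3.09 ± 0.32 in pPPs (95% interval 2.41 to 3.77, limma adjusted p = 7.35e-05). With each uncultured aPP array set at no less than the lowest signal called present, the fold in aPPs is 8.95. This floor is taken over all probe sets and is no detection limit of CHAC1, which read 10.96 with no present call. In pPPs every uncultured signal lay above the lowest signal called present, so the 8.50-fold there is the fitted change. Neither value covers the spread between arrays. The gene entered the test through its cultured arrays, and it also passed without the filter on dim probe sets (adjusted p = 0.000292 and 0.000369). In both regions set 1 read higher than set 2, and the cultured regions overlapped, with a difference of 0.05 (95% interval -0.69 to 0.80). STC2, a secreted glycoprotein induced by ER stress, read 6.425, 0.96 and 0.95 in aPPs with no present call and 5.30, 5.32 and 8.09 in pPPs. It rose to 21.9 and 25.0 in cultured aPPs, 1.96-fold with the same kind of floor (1.08 ± 0.18, limma adjusted p = 0.00301). In cultured pPPs it rose to 24.35 and 20.9 (0.80 ± 0.18, limma adjusted p = 0.0207). STC2 is dim on every array. Its call in pPPs was lost with an offset of 4 (adjusted p = 0.0549) or trimmed mean scaling (adjusted p = 0.0556). The same held without the filter on dim probe sets (adjusted p = 0.0597), without pPP set 1 (adjusted p = 0.056) and without pPP set 2 (adjusted p = 0.0698). It was also lost without cultured pPP set 1 (difference of 0.75) or set 2 (0.86). In aPPs the call of STC2 was lost without cultured aPP set 2 (1.03). DDIT4, an inhibitor of mTORC1 signalling, was also dim, at 5.81 to 14.55 without culture and 1.05 to 6.46 with it, and its differences of -0.38 ± 0.17 in aPPs and -0.24 ± 0.17 in pPPs did not pass. Of the 7 regulators and stress targets, 4 rose in each region, beside 2.1 (aPPs) and 2.24 percent (pPPs) of all probe sets. The medians of the 7 were 0.86 in aPPs and 0.80 in pPPs.

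Of 6 amino acid transporters, 2 rose in pPPs and 3 in aPPs, with medians of 0.45 and 0.62. Over all probe sets 2.24 and 2.1 percent rose. SLC7A5, the exchanger for large neutral amino acids, read 581, 620.0 and 565 in aPPs, 619.8, 635 and 559 in pPPs, 993 and 909 in cultured aPPs, and 869 and 908 in cultured pPPs. It rose by 0.68 ± 0.13 in aPPs (limma adjusted p = 0.00794) and 0.55 ± 0.13 in pPPs (limma adjusted p = 0.0278), with no overlap, and a second probe set of it rose in both (1.09, adjusted p = 0.0036, and 0.75, adjusted p = 0.0337). The call in pPPs was lost without any 1 of the pPP arrays (adjusted p = 0.0583 to 0.0892). It was also lost without the intensity trend in the variances (adjusted p = 0.068) and with only the arrays compared (adjusted p = 0.0634). Without any 1 of the cultured pPP or cultured aPP arrays it was lost too (differences of 0.51 to 0.57). The call in aPPs was lost without cultured aPP set 1 (0.61) or set 2 (0.74).

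SLC1A4, a carrier of alanine, serine and cysteine, read 576, 496 and 587 in aPPs, 720.0, 743.5 and 670.4 in pPPs, 1173 and 1125 in cultured aPPs, and 1279 and 988 in cultured pPPs. It rose by 1.04 ± 0.14 in aPPs (limma adjusted p = 0.000639) and by 0.65 ± 0.14 in pPPs (limma adjusted p = 0.0166), where the call was lost without pPP set 3 (adjusted p = 0.0553) or cultured pPP set 1 (adjusted p = 0.253), and without the intensity trend in the variances (adjusted p = 0.0527). A second probe set of SLC1A4 rose in aPPs (1.01, adjusted p = 0.0461) and did not pass in pPPs (0.37, adjusted p = 0.495). SLC7A3, a carrier of arginine and lysine, read 454, 401 and 535 in aPPs and 963 and 817 in cultured aPPs. It rose there by 0.92 ± 0.18 (limma adjusted p = 0.0082), a call lost without cultured aPP set 1 (adjusted p = 0.169) or set 2 (adjusted p = 0.0597). In pPPs it read 616, 616 and 547, and after culture 1072 and 710.4. A second probe set of SLC7A3 rose in both regions (1.39, limma adjusted p = 0.000512, and 0.89, adjusted p = 0.0112).

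The remaining transporters did not pass. SLC7A1, another carrier of arginine and lysine, lay at 10.98 to 17.9 without and 20.4 to 24.6 with culture, with differences of 0.31 ± 0.17 in aPPs and 0.36 ± 0.17 in pPPs. SLC38A2, a sodium-coupled carrier of small neutral amino acids, overlapped in pPPs (0.16 ± 0.20) and not in aPPs (0.57 ± 0.20, limma adjusted p = 0.150). SLC7A11, the cystine and glutamate exchanger, was at 2.97 to 10.65 on all arrays, with differences of 0.18 ± 0.18 and -0.22 ± 0.18.

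Transfer RNA synthetases attach amino acids to their tRNAs. GARS, for glycine, was the only 1 of 8 to rise in either region. It read 388, 475 and 449 in aPPs, 453, 484 and 486 in pPPs, 837 and 761 in cultured aPPs, and 824 and 879 in cultured pPPs. The rise was 0.85 ± 0.14 in aPPs (limma adjusted p = 0.00315) and 0.82 ± 0.14 in pPPs (limma adjusted p = 0.0041), with no overlap in either, and the call in aPPs was lost without cultured aPP set 1 (adjusted p = 0.0973). A second, dimmer probe set of GARS differed by -0.14 and 0.01 and did not pass.

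AARS (alanine), SARS (serine), CARS (cysteine) and WARS (tryptophan) all had positive differences in both regions, from 0.26 to 0.74, and none passed. YARS (tyrosine) had 0.78 ± 0.27 in pPPs (limma adjusted p = 0.121), with cultured arrays at 192 and 104, and 0.17 ± 0.27 in aPPs. Another probe set of YARS rose in pPPs (1.24, limma adjusted p = 0.00491), as did another of CARS (0.67, adjusted p = 0.042). NARS (asparagine) and EPRS (glutamate and proline) had differences between -0.25 and 0.04. The medians of the 8 synthetases were 0.40 in aPPs and 0.51 in pPPs, so this group had mostly positive differences, of which 1 passed.

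Of the 10 ER chaperones and genes of the unfolded protein response, 0 rose or fell in either region by limma, with medians of 0.0055 in aPPs and 0.033 in pPPs. At an unadjusted p under 0.05 there was 1 in each, beside 18.1 percent of all probe sets in pPPs and 16.7 percent in aPPs. HSPA5, the main chaperone of the ER lumen, read 1860, 1840 and 1606 in aPPs, 1973, 1695 and 1718 in pPPs, 1864 and 1790 in cultured aPPs, and 1997 and 2074 in cultured pPPs. Cultured and uncultured aPPs overlapped, with a difference of 0.05 (95% interval -0.17 to 0.27). In pPPs the cultured arrays were the higher ones, at 0.18 (95% interval -0.03 to 0.40, limma adjusted p = 0.367). HSP90B1, DNAJC3, PDIA3, PDIA4 and PDIA6, which fold proteins or form their disulphide bonds, had differences between -0.12 and 0.16 in both regions.

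XBP1, the factor made active by IRE1 splicing, depended on the probe set. The brighter one read 355, 418 and 249 in aPPs, 451, 466 and 266 in pPPs, 559.6 and 401 in cultured aPPs, and 634 and 538 in cultured pPPs. Its replicates were wide apart, and differences of 0.49 ± 0.25 in aPPs (limma adjusted p = 0.342) and 0.59 ± 0.25 in pPPs (limma adjusted p = 0.217) did not pass. The other read 184 to 206 in aPPs, 171 to 229 in pPPs, 359 and 366 in cultured aPPs, and 431 and 398 in cultured pPPs, and it rose by 0.86 (limma adjusted p = 0.0124) and 0.99 (limma adjusted p = 0.00491). The signals do not tell spliced from unspliced XBP1. HERPUD1, a part of ER-associated degradation, lay at 7.39 to 12.4 without culture and 10.3 to 23.2 with it, and its difference of 0.58 ± 0.17 in aPPs did not pass (limma adjusted p = 0.0859), nor did that of 0.12 ± 0.17 in pPPs. CALR and SEL1L, a lectin chaperone and a part of the degradation complex, had differences from -0.41 to 0.17.

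**Figure D4:**
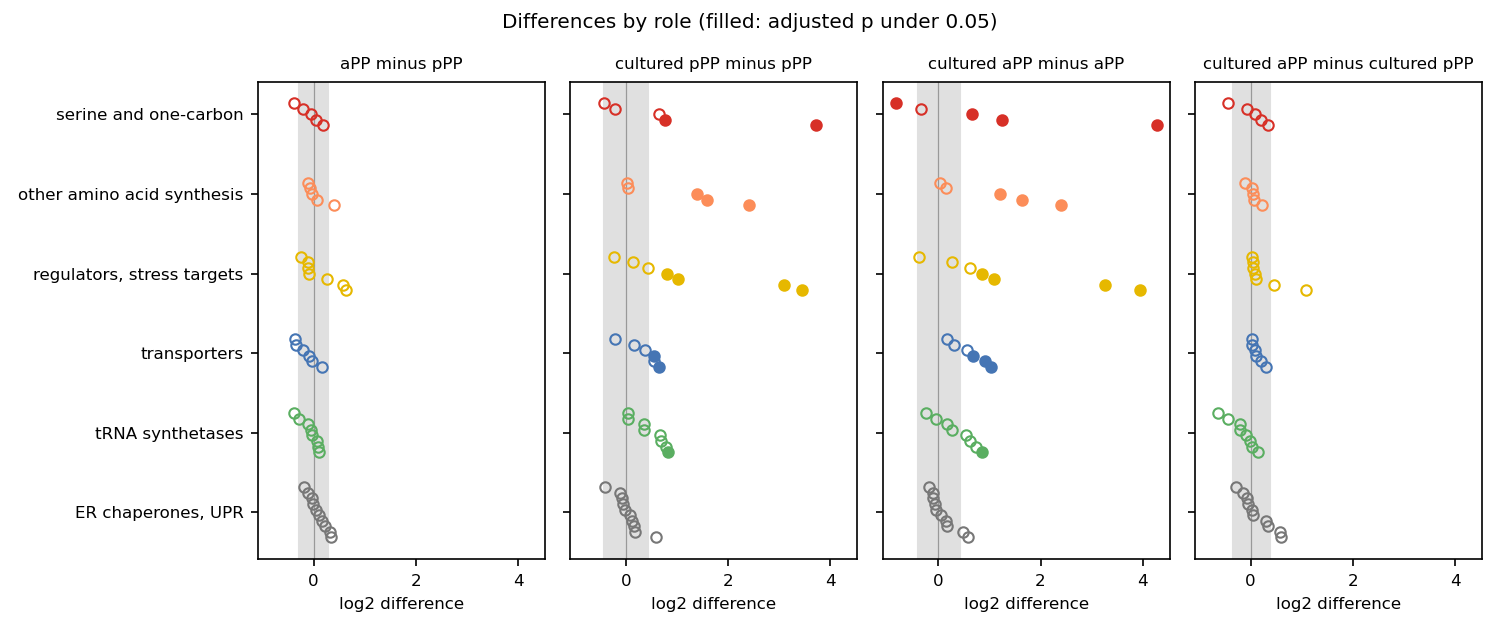
Log2 differences of the 41 genes in the 4 comparisons between groups (panels, x axis), by role (rows), filled where the adjusted p is under 0.05. The grey band spans the 10th to the 90th percentile of all tested probe sets. Filled points appear only in the 2 culture comparisons, and the row of ER chaperones has none.

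Before culture none of the 41 passed between aPPs and pPPs, where 1.18 percent of all probe sets were higher and 0.713 percent lower in aPPs. With 3 arrays in each group, not paired by set number in the test, this does not show that the regions were equal. At an unadjusted p under 0.05 there were 5, or 12.2 percent of members beside 10.1 percent of all probe sets. They were ATF3 (0.63 ± 0.20, limma adjusted p = 0.153), CEBPB (0.58 ± 0.20, adjusted p = 0.213) and GPT2 (0.41 ± 0.17, adjusted p = 0.394) on the side of aPPs, and SLC1A4 (-0.36 ± 0.13, adjusted p = 0.244) and SLC7A3 (-0.35 ± 0.16, adjusted p = 0.453) on that of pPPs. The arrays of the 2 regions did not overlap for 5 members higher and 3 lower in aPPs, and 6.83 and 7.04 percent of all probe sets did not overlap. The log2 differences of the 41 ran from -0.39 to 0.63 with a median of -0.04, beside -0.02 over all probe sets.

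After culture the regions again did not differ by the test in any member, where 0.102 and 0.13 percent of all probe sets were higher and lower in cultured aPPs. At an unadjusted p under 0.05 there were 4, or 9.76 percent beside 9.1 percent of all probe sets: CEBPB, YARS, SEL1L and PHGDH. CEBPB came nearest, at 1.09 ± 0.24 (95% interval 0.58 to 1.60, limma adjusted p = 0.0948), and it passed with an offset of 64 (0.99, adjusted p = 0.00847) and with only the arrays compared (1.09, adjusted p = 0.0277). Its aPP arrays all lay above its pPP arrays on each side of culture. The groups of 2 did not overlap for 13 members higher and 5 lower in cultured aPPs, against 20.6 and 22.7 percent of all probe sets.

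The difference between the culture responses of the regions passed for none of the 41. By the same test 0.00926 percent of all probe sets responded more and 0.00463 percent less in pPPs. At an unadjusted p under 0.05 there were 0 members, beside 6.18 percent of all probe sets. The estimates ran from -0.60 in MTHFD2 (95% interval -1.23 to 0.04, limma adjusted p = 0.834) to 0.61 in YARS (95% interval -0.19 to 1.41, adjusted p = 0.854). For PSPH the estimate was -0.55 (95% interval -1.16 to 0.06) and for ASNS 0.01 (95% interval -0.85 to 0.87), so that unequal responses of this size cannot be told from equal ones with these arrays.

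A wider list of 145 genes of the same pathways, of which 104 were tested, had smaller counts. In pPPs 8 rose and 2 fell, and in aPPs 4 rose and 4 fell, where 2.24 and 1.7 percent of all probe sets rose and fell in pPPs and 2.1 and 1.61 percent in aPPs, and the medians were 0.06 and 0.0044. None passed in the other 3 comparisons. At an unadjusted p under 0.05 there were 8 of 104 between uncultured regions, 13 between cultured regions and 4 between responses, beside 10.1, 9.1 and 6.18 percent of all probe sets. Rising in both regions were VLDLR, a lipoprotein receptor and ATF4 target (1.54 ± 0.23 in pPPs, 1.09 ± 0.23 in aPPs), SLC1A3, a glutamate carrier (1.31 ± 0.30 and 1.38 ± 0.30), and OAT, ornithine aminotransferase (1.02 ± 0.20 and 1.19 ± 0.20). SLC1A3 read 56.1, 130.2 and 77.9 in aPPs, 41.6, 23.9 and 58.2 in pPPs, 230.0 and 258 in cultured aPPs, and 140 and 105 in cultured pPPs, without overlap within a region. SLC16A10, a carrier of aromatic amino acids, fell in both, by 1.07 ± 0.18 in aPPs and 0.70 ± 0.18 in pPPs.

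In pPPs alone 5 passed the test: ASS1, argininosuccinate synthase (1.18 ± 0.20), JDP2, a bZIP repressor (1.06 ± 0.26), BCAT1, a branched-chain aminotransferase (0.89 ± 0.22), SEC24D of the COPII coat (0.77 ± 0.20) and TARS, the synthetase for threonine (0.56 ± 0.13). JDP2 was called present only on cultured arrays, at 80.8 and 32.1 in cultured pPPs. In aPPs alone ALDH1L2 passed, a mitochondrial folate enzyme (1.12 ± 0.21). In the region where they did not pass, cultured arrays of all of these genes also lay above the uncultured ones. Over all probe sets 18.4 percent did so in aPPs and 17.2 percent in pPPs. The difference between the responses of the regions passed for none of these genes. GLUL, glutamine synthetase, fell in both regions (-0.70 ± 0.18 in aPPs, -0.77 ± 0.18 in pPPs), and GLDC of glycine cleavage (-0.54 ± 0.14) and CREB3L2 (-0.48 ± 0.13) fell in aPPs. These 3, SEC24D and TARS are named because their counts were small, after their values were seen. Without the filter on dim probe sets VLDLR, SLC1A3, OAT and ASS1 still passed in pPPs. JDP2, BCAT1, SEC24D, TARS, GLUL and SLC16A10 did not (limma adjusted p = 0.0565 to 0.0975). In aPPs VLDLR, SLC1A3, OAT, ALDH1L2 and SLC16A10 passed without it, and GLUL, GLDC and CREB3L2 did not (limma adjusted p = 0.061 to 0.085). The counts of this wider list rested on single arrays. In pPPs 1 gene passed without cultured pPP set 1, and 5 or 6 without any 1 of the pPP or cultured aPP arrays. In aPPs 0 passed without cultured aPP set 2, 1 without cultured aPP set 1, and 5 without aPP set 1, aPP set 2 or any 1 of the pPP arrays.

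Summed markers of some other tissues differed with culture or region, and their part in these results was not tested. Few single markers passed. In culture 1 of 5 tested neural plate genes fell in each region, and 1 of 7 mesoderm genes rose in pPPs and 0 in aPPs. Of 5 tested endoderm and mesendoderm genes 0 passed in culture, and 2 were higher in aPPs than in pPPs. The summed signal of neural plate genes (7 of 8 measured) was 1036 to 1491 on uncultured and 407.8 to 662.5 on cultured arrays. Mesoderm genes (11 of 13 measured, with TBX6, PRRX2 and TBX1 never called present) summed to 1143 to 1367 in aPPs, 268 to 614 in pPPs, 1814 to 2178 in cultured aPPs and 915 to 1250 in cultured pPPs, most of it from FOXC2. Endoderm and mesendoderm genes (8 of 9 measured, FOXA1 never called present) summed to 324 to 1888 in aPPs, 238 to 311 in pPPs and 227 to 540.5 on cultured arrays. Blood and endothelial genes (6 of 9 measured, with the brightest probe sets of LMO2, KDR and CDH5 never called present) stayed between 22.1 and 40.6 on all arrays.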

How the data were processed

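RNA of 10 samples was hybridised to 10 Affymetrix chicken arrays. The authors used an Absolutely RNA kit for extraction and NuGEN Ovation V2 with a biotin module for amplification and labelling, and the tool the submitters' processing notes name for the values is MAS5 (version not given in the sources used here). Deposited signals are a linear intensity and are not scaled to each other. The deposited detection calls (present, marginal or absent) are in another table, and 12 columns of values, 10 of signals and 2 of calls, were not used. The number of arrays limits the precision.

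Signals were quantile normalised over the 10 arrays, 16 was added and log2 taken. The 96 control probe sets were left out, and 21591 of 38439 probe sets, those called present on 2 or more of the 8 arrays with usable calls, entered 1 model of 4 group means with limma 3.58.1 in R 4.3.3, with variances that follow the intensity and Benjamini-Hochberg adjustment over all tested probe sets. Probe sets were named by the platform annotation, and 177 with several symbols named no gene. The procedure was also run on simulated data, with changes put on brighter probe sets in cultured pPPs only. That run did not test changes of dim genes or changes in aPPs. Where a group has no present call, a fold sets each of its arrays at no less than the lowest signal called present there. An array whose calls could not be assigned took the highest such value of its group. This floor is over all probe sets and is no detection limit of a single gene. Such a fold does not cover the spread between arrays. Plots were made in Python 3.11.15 with matplotlib 3.10.9.

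Members, role groups and the wider list were chosen with earlier results of these data known. By rule, every member that passed a comparison between groups, with ATF4, DDIT3, XBP1, HSPA5 and ASNS, was described on each array, and up to 8 genes of the wider list were named, largest change first. The labels do not say whether equal set numbers share a dissection, and the tests as reported do not pair them. For aPPs and pPPs of the same set number, departures from the group means correlated at 0.439, 0.182 and 0.226 for sets 1, 2 and 3. For cultured arrays the departures correlated at -0.00805 and 0.0772 with aPPs, at 0.0648 and -0.106 with pPPs, and at 0.1 with each other. With 2 arrays in a group the departures of sets 1 and 2 mirror each other, so this last value is the same for both sets. Alternatives were offsets of 4 and 64, no normalisation, scaling to a trimmed mean, no filter, present calls on at least 4 arrays, no intensity trend, the set number as a block, array weights, only the arrays compared, any probe set of a gene, and each array left out in turn.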

Additional observations from a re-analysis of the deposited data

How the results depend on the processing

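No member passed between aPPs and pPPs or between the culture responses under any alternative, and none of the wider list in those comparisons or between cultured regions. Between cultured regions 1 member (CEBPB) passed with an offset of 64 and with only the arrays compared. Without normalisation 3 members passed in pPPs and 3 in aPPs, down from 12 and 15, and 0 of the wider list in each. There the median of all probe sets shifted by -0.20 in pPPs and -0.19 in aPPs, and the members' medians were 0.19 and 0.31. Over all probe sets 14 rose and 20 fell there in aPPs (41.2 percent rises), and 10 rose and 8 fell in pPPs (55.6 percent). With a trimmed mean 422 rose and 537 fell in aPPs (44 percent rises), and 440 rose and 449 fell in pPPs (49.5 percent). As reported 454 rose and 347 fell in aPPs (56.7 percent rises), and 483 rose and 366 fell in pPPs (56.9 percent). Calls over all probe sets were not counted under the other settings or with arrays left out. A change in the gene counts there cannot be told from a change in calls over all probe sets. The other settings gave 10 to 16 members in pPPs and 12 to 21 in aPPs. Single arrays left out gave 8 to 12 and 8 to 15. In the wider list pPPs had 10 calls as reported, 4 without the filter and 6 with only the arrays compared, and 1 to 12 with single arrays left out. In aPPs these were 8 as reported, 5 with a trimmed mean, without the filter or without the trend, and 0 to 9. In a model with a replicate block for the set number 12 members passed in pPPs and 17 in aPPs, and 11 of the wider list in each, and of the calls of single members described only that of ATF3 in aPPs was lost. HSPA5 in aPPs ranged from -0.018 without aPP set 3 (adjusted p = 0.952) to 0.090 without aPP set 1, where it was 0.05 as reported. Beside PSPH, CEBPB and CHAC1, members called under every alternative with normalisation were PSAT1, ASNS, GPT2, ALDH18A1 and GARS in pPPs and ASNS, ALDH18A1 and SLC1A4 in aPPs, but CHAC1 was not tested where 4 present calls were required. With only the arrays compared the difference between responses has no value.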
